A study of Homo sapiens with 12 samples.

Results

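The expression of 10 genes was examined in U251 cells, an established human glioblastoma cell line, after silencing of *PD-L1* and stimulation with interferon gamma (IFNγ). They encode 6 neutrophil-attracting CXC chemokines (*CXCL1*, *CXCL2*, *CXCL3*, *CXCL5*, *CXCL6* and *CXCL8*), the IL6-family cytokines *IL6* and *LIF*, and the interleukin 1 cytokines *IL1A* and *IL1B*. The genes were selected by symbol, as 10 of the 45416 genes of the table, and the set was chosen from earlier results of these same 12 libraries. The values below therefore describe the set, and the false discovery rates (FDR), which come from 1 fit over all genes tested, are not independent evidence about it.

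Cells were transfected with siNC, the control siRNA, or with siPDL1-1 or siPDL1-2, which are duplex siRNAs directed at *CD274*, the gene for PD-L1. From 48 h after transfection they were left unstimulated or given IFNγ at 100 U/ml for 24 h, which made 6 conditions with 2 libraries each. All conditions shared the labelled WT genotype and siRNA transfection, no untransfected cells were part of the comparison, and the methods state that libraries came from independent experiments without saying which replicate came from which, so p-values measure only the spread between these libraries. The values are polyA RNA-seq read counts scaled to a common library size (CPM), normalized by the authors, and rest on 17101069 to 55657393 reads per library.

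CXC chemokines of this group carry a Glu-Leu-Arg sequence ahead of their first cysteines and attract neutrophils through the receptors CXCR1 and CXCR2. IL6 signals through IL6R and the shared subunit gp130 (*IL6ST*), while LIF signals through LIFR and the same subunit, and both activate STAT3. IL1A and IL1B act on IL1R1 and IL1RAP through MYD88 and the IRAK kinases and are classical inducers of *CXCL8* and *IL6*. In glioblastoma these cytokines are known products of the tumor cells, and NF-kB, AP-1 and C/EBP factors are known to act at their promoters.

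The chemokine genes lie together on chromosome 4 of GRCh38, from *CXCL8* at chr4:73740541-73743716 (plus strand) to *CXCL2* at chr4:74097040-74099196 (minus strand). *IL6* lies at chr7:22725884-22732002 (plus strand) and *LIF* at chr22:30240453-30246759 (minus strand). *IL1A* (chr2:112773925-112784493) and *IL1B* (chr2:112829751-112836816) lie on the minus strand of chromosome 2. Stretches of 60 bases upstream of the RefSeq transcription starts are printed here because the chemokine promoters share a sequence element at nearly the same distance from the start, whether or not the gene gave reads. These starts can differ from the gene bounds above, and the *IL6* and *CXCL3* stretches lie inside the gene as the annotation bounds it. The sequences were taken from RefSeq (GRCh38.p14), are written 5′ to 3′ on the strand of the gene, and have a match to an NF-kB motif in capitals, whose first base lies between positions -91 and -73 from the start.
CXCL8, chr4:73740453-73740512, plus strand: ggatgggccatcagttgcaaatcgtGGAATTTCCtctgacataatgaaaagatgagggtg
CXCL6, chr4:73836563-73836622, plus strand: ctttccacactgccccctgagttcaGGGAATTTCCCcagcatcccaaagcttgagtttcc
CXCL1, chr4:73869289-73869348, plus strand: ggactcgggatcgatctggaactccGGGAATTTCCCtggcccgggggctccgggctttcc
CXCL5, chr4:73998734-73998793, minus strand: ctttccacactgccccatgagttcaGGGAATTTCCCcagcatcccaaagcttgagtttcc
CXCL3, chr4:74038734-74038793, minus strand: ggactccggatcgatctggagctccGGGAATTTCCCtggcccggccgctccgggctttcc
CXCL2, chr4:74099239-74099298, minus strand: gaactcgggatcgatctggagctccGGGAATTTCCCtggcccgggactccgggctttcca
IL6, chr7:22727102-22727161, plus strand: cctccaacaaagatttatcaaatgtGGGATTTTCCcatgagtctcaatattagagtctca

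Of the 10 genes, 9 had a promoter entry of 300 bases (250 before the start and 50 after it), and 7 of these held the NF-kB consensus or the shorter motif GGAATTTCC on either strand. Among all 35116 promoters, 11.5% held at least 1 of both motifs, and 0.461% held GGAATTTCC, which lies inside the consensus match in 5 of the 6 chemokine promoters. *CXCL8* held GGAATTTCC without the consensus. The AP-1 motif TGACTCA, found in 4.95% of promoters, was present in those of *CXCL8* and *IL1A*. The C/EBP motif TTGCNNAA, found in 10.5%, was present in those of *IL6*, *CXCL2* and *IL1B*, and the STAT motif TTCNNNGAA, found in 7.66%, in those of *CXCL5*, *CXCL6* and *IL1B*. A match describes the letters of the window and not binding of a factor.

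In unstimulated siNC cells *LIF* had the highest level per length of the 10 genes, at 6.19 CPM per kb of exons. *CXCL8* followed with 2.90, *CXCL2* with 2.61 and *CXCL3* with 2.12 CPM per kb. *IL6* stood at 0.47, *IL1A* at 0.192 and *IL1B* at 0.12 CPM per kb. Lengths were the union of all annotated exons, such as 1398 bases for *CXCL2*, 2219 for *CXCL3* and 4321 for *IL6*. A transcript can be shorter than that, so the order of close values depends on this choice. By CPM alone, *CXCL3* (mean 4.70) stood above *CXCL2* (3.65). Of the 10 genes, 7 passed the filter on low values and were among the 17982 genes tested. *CXCL1* and *CXCL6* had 0 reads in all 12 libraries. *CXCL5* had 1 read in each unstimulated siPDL1-2 library and 0 in the others. A count of 0 allows up to 3 reads, or 0.0562 to 0.176 CPM in these libraries, so lower levels of these chemokines were not detectable at this depth. *CXCL1*, *CXCL2* and *CXCL3* are near-identical copies (coding identity 90.7% to 94.4% over 321 bases), and reads from stretches they share could have been assigned to either gene. Such exact stretches were few, 23 of 1041 stretches of 75 bases of *CXCL2* shared with *CXCL3* and 3 of 1100 of *CXCL1* shared with *CXCL2*, and the split is uncertain only as far as reads came from them or mapped with mismatches.

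**Figure D1:**
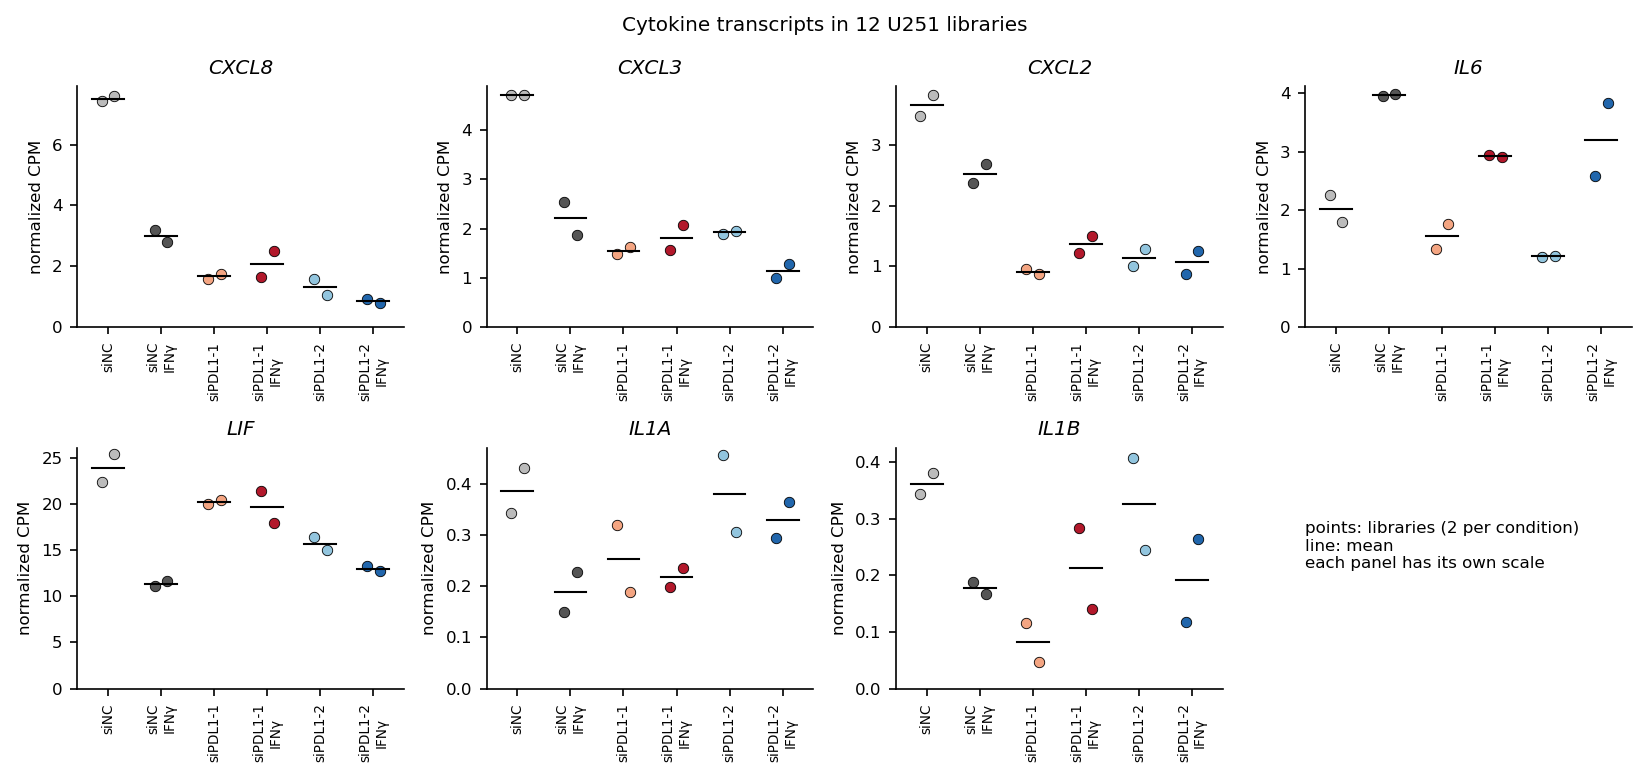
Normalized CPM (vertical axis, from 0, with its own scale in each panel) of the 7 cytokine genes tested, in the 6 conditions on the horizontal axis. Points are libraries, 2 per condition, and the black line is their mean; *CXCL8* in unstimulated siNC cells (7.44 and 7.59 CPM) stands above all other conditions, while *IL6* is highest with siNC and IFNγ (3.95 and 3.98 CPM).

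The silenced gene checks the labels. *CD274*, which encodes PD-L1, measured 4.60 to 4.91 CPM in unstimulated siNC cells, 2.67 to 2.73 with siPDL1-1 and 3.45 to 3.57 with siPDL1-2. After IFNγ it measured 71.2 to 76.0, 60.9 to 66.7 and 35.0 to 37.5 CPM. It was lower with each siRNA in every library, but only the differences for siPDL1-1 without IFNγ (log2 fold change -0.64) and siPDL1-2 with IFNγ (-1.001) passed the thresholds used throughout, FDR < 0.01 and fold change > 1.5. Of 8 listed glioma markers, *VIM*, *NES*, *CD44*, *EGFR* and *SOX2* exceeded 100 CPM in every library. The others were low: the astrocytic marker *GFAP* measured 1.92 to 7.25 CPM, *S100B* 2.40 to 5.92 CPM and the oligodendrocyte-lineage factor *OLIG2* 0 to 0.359 CPM. The summed level of 12 blood cell markers, which include those of neutrophils and monocytes, was 0.147 to 1.02 CPM per library, and *MS4A1* and *HBB* were at 0 in all. In bulk RNA, fewer cells of a type and less RNA per cell cannot be told apart.

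The first comparison asks what each *PD-L1* siRNA did in unstimulated cells. Both siRNAs lowered *CXCL8*, *CXCL3* and *CXCL2*, the chemokines with detectable levels, while *IL6* did not pass the thresholds with either. *CXCL8*, the main human neutrophil chemoattractant, measured 7.44 and 7.59 CPM with siNC, 1.60 and 1.74 with siPDL1-1, and 1.58 and 1.07 with siPDL1-2. Both siNC libraries lay above all 4 knockdown libraries, and the mean was 77.8% lower with siPDL1-1 and 82.4% lower with siPDL1-2. *CXCL8* had the largest decrease of the 7 tested genes with either siRNA. Its log2 fold change of CPM + 1 was -1.67 ± 0.15 (SE) for siPDL1-1 (limma, FDR = 8.88e-07) and -1.88 ± 0.15 for siPDL1-2 (FDR = 2.45e-07).

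*CXCL3* measured 4.70 and 4.71 CPM with siNC, 1.48 and 1.62 with siPDL1-1, and 1.89 and 1.95 with siPDL1-2. Its libraries again did not overlap with those of siNC, and it fell by 1.16 ± 0.14 on the log2 scale with siPDL1-1 (FDR = 1.43e-05) and by 0.96 ± 0.14 with siPDL1-2 (FDR = 5.49e-05). *CXCL2* measured 3.48 and 3.82 CPM with siNC, 0.957 and 0.871 with siPDL1-1, and 1.01 and 1.28 with siPDL1-2. It fell by 1.28 ± 0.13 with siPDL1-1 (FDR = 3.83e-06) and by 1.12 ± 0.13 with siPDL1-2 (FDR = 1.00e-05). The pseudocount of 1 CPM shrinks the changes of such low genes. Over 18 alternatives, *CXCL2* ran from -2.04 (edgeR) to -1.23 with siPDL1-1 and from -1.72 (DESeq2) to -1.03 with siPDL1-2.

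*LIF*, which signals through LIFR and gp130, measured 22.5 and 25.5 CPM with siNC, 20.04 and 20.45 with siPDL1-1, and 16.4 and 15.05 with siPDL1-2. Its levels with siPDL1-2 lay below both siNC libraries. The log2 fold change of -0.58 ± 0.09 had an FDR of 1.18e-04 but stayed just under the fold change threshold, and it passed in 5 of 18 alternatives. It passed with edgeR (-0.64), DESeq2 (-0.65) and pseudocount 0.1 (-0.60). Leaving out siNC replicate 1 gave -0.66 and leaving out siPDL1-2 replicate 1 gave -0.64, both past the thresholds. With siPDL1-1 the value was -0.23 ± 0.09 (FDR = 0.0647). *LIF* (mean 17.3 CPM) overlaps *LIF-AS1* and *AC004264.1* on the opposite strand, with mean levels of 0.0439 and 0.412 CPM.

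*IL6*, the founding cytokine of its family, measured 2.25 and 1.80 CPM with siNC, 1.33 and 1.77 with siPDL1-1, and 1.20 and 1.22 with siPDL1-2. All knockdown libraries lay below those of siNC, yet the log2 fold changes of -0.25 ± 0.15 (FDR = 0.230) and -0.45 ± 0.15 (FDR = 0.0224) did not pass. *IL6* overlaps *IL6-AS1* and part of *STEAP1B* on the opposite strand, with mean levels of 0.247 and 0.328 CPM against 2.48 CPM for *IL6*, and reads were counted on both strands. In total, 3 of the 10 genes were lower with siPDL1-1 and 3 with siPDL1-2, and 0 were higher with either. Over all genes tested, 1.45% were called lower and 2.55% higher with siPDL1-1, and 1.33% lower and 4.84% higher with siPDL1-2. Both comparisons share the 2 siNC libraries.

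**Figure D2:**
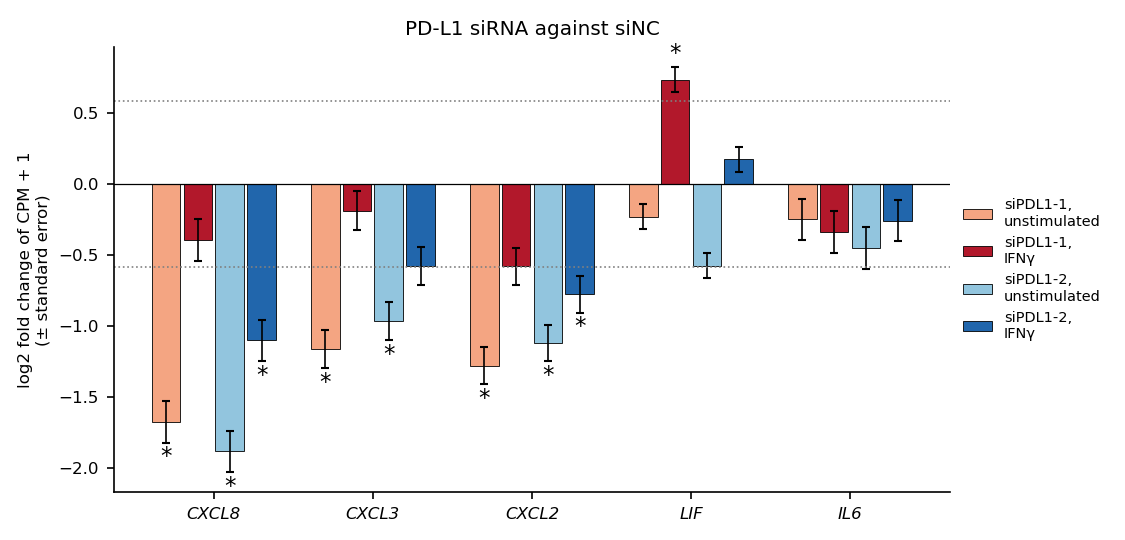
Log2 fold change of CPM + 1 (vertical axis) against siNC for 5 cytokine genes (horizontal axis), with each *PD-L1* siRNA, unstimulated or with IFNγ. Bars are estimates from the fit of 12 libraries, whiskers are ± 1 standard error, dotted lines mark a fold change of 1.5, and stars mark values past both thresholds; the *CXCL8* bars without IFNγ reach -1.67 and -1.88, and *LIF* with siPDL1-1 and IFNγ stands at 0.74.

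Between unstimulated siPDL1-1 and siPDL1-2 cells, limma called 0 of the 10 genes. At an unadjusted p under 0.05, 2 of the 7 tested genes differed, and edgeR and DESeq2 called 0. Over all genes, 0.884% were called higher and 3.47% lower with siPDL1-1 than with siPDL1-2. For *CXCL8* the difference was 0.21 on the log2 scale (95% confidence interval -0.11 to 0.52), for *CXCL3* -0.20 (-0.49 to 0.09) and for *CXCL2* -0.16 (-0.44 to 0.12). *LIF* was higher with siPDL1-1 in both libraries by 0.35 (0.16 to 0.53, FDR = 0.00682), under the fold change threshold.

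The next comparison asks how IFNγ changed these genes in cells with the control siRNA. IFNγ lowered *CXCL8*, *CXCL3* and *LIF* and raised *IL6*. *CXCL8* went from 7.44 and 7.59 CPM to 3.20 and 2.80, a mean 60.1% lower, and fell by 1.09 ± 0.15 on the log2 scale (FDR = 2.97e-05). *CXCL3* went from 4.70 and 4.71 CPM to 2.55 and 1.87 and fell by 0.84 ± 0.14 (FDR = 1.71e-04). The libraries of the 2 states did not overlap for either gene. *CXCL2* measured 2.38 and 2.68 CPM after IFNγ against 3.48 and 3.82 before it, and its value of -0.40 ± 0.13 did not pass (FDR = 0.0247).

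*LIF* went from 22.5 and 25.5 CPM to 11.2 and 11.6 with IFNγ, a mean 52.4% lower, and fell by 1.01 ± 0.09 (FDR = 3.89e-07). *IL6* moved the other way, from 2.25 and 1.80 CPM to 3.95 and 3.98. Its mean was 1.96 times that of unstimulated cells, with a log2 fold change of 0.72 ± 0.15 (FDR = 0.00109). The call was lost without unstimulated siNC replicate 2 (0.61, FDR = 0.0185). Of the 10 genes, 3 were lower and 1 was higher, where over all genes tested 1.45% were called lower and 6.67% higher. The 7 tested genes had a median log2 fold change of -0.40, and all genes tested had a median of 0.00.

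In cells with siPDL1-1, *IL6* was the only 1 of the 10 genes called after IFNγ. It went from 1.33 and 1.77 CPM to 2.95 and 2.92, 1.89 times the mean, with a log2 fold change of 0.63 ± 0.15 (FDR = 0.00344). The call is weak: it was lost without unstimulated siPDL1-1 replicate 1 (0.51, FDR = 0.0572), without IFNγ-treated replicate 1 (0.62, FDR = 0.0127) or 2 (0.64, FDR = 0.0166), with DESeq2 (FDR = 0.0118) and without the filter on low values (FDR = 0.0115). *CXCL8* measured 1.60 and 1.74 CPM before IFNγ and 1.65 and 2.49 after it, so the states overlapped (0.19 ± 0.15, FDR = 0.360). *LIF* measured 20.04 and 20.45 CPM before and 21.5 and 18.0 after IFNγ and overlapped too (-0.04 ± 0.09, FDR = 0.759). *CXCL3*, at 1.56 and 2.07 CPM after IFNγ (0.14), and *CXCL2*, at 1.22 and 1.51 CPM (0.30), did not pass. Over all genes tested, 5.58% were called higher and 1.30% lower.

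In cells with siPDL1-2, *IL6* went from 1.20 and 1.22 CPM to 2.58 and 3.83, 2.65 times the mean, and rose by 0.91 ± 0.15 on the log2 scale (FDR = 2.57e-04). The IFNγ-treated libraries lay well above the unstimulated ones but differed between themselves. Over the 18 alternatives the same change ran from 0.70 to 1.45, the highest from edgeR's count model. *CXCL8* measured 1.58 and 1.07 CPM before and 0.938 and 0.793 after IFNγ, without overlap, but the value of -0.31 ± 0.15 did not pass (FDR = 0.130). *CXCL3* (-0.45, FDR = 0.0216), *LIF* (-0.26, FDR = 0.0404) and *CXCL2* (-0.06, FDR = 0.794) did not pass either. Thus 1 of the 10 genes was called higher and 0 lower, against 3.62% and 1.65% of all genes tested.

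**Figure D3:**
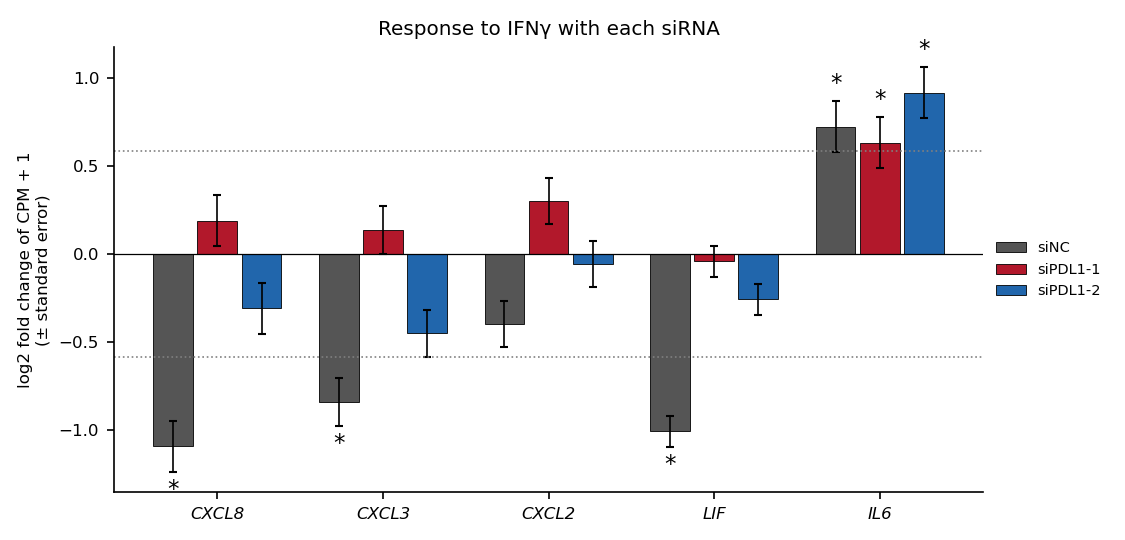
Log2 fold change of CPM + 1 after IFNγ (vertical axis) for 5 cytokine genes (horizontal axis) in cells with siNC, siPDL1-1 or siPDL1-2. Bars are estimates, whiskers are ± 1 standard error, dotted lines mark a fold change of 1.5, and stars mark values past both thresholds; *IL6* is above 0 with all siRNAs (0.72, 0.63 and 0.91), and *LIF* reaches -1.01 with siNC.

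Whether the IFNγ response itself differed between siRNAs was tested as the difference between responses. IFNγ changed *LIF* by -1.01 in siNC cells, by -0.04 with siPDL1-1 and by -0.26 with siPDL1-2, so its decrease was smaller or absent. The *LIF* response was thus higher than in siNC cells by 0.97 ± 0.13 with siPDL1-1 (FDR = 2.13e-04) and by 0.75 ± 0.13 with siPDL1-2 (FDR = 5.55e-04). Both calls held in all 18 alternatives. The *IL6* responses differed by -0.09 (95% confidence interval -0.53 to 0.35) and 0.19 (-0.25 to 0.63), and neither passed.

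The *CXCL8* response was higher with siPDL1-1 than with siNC by 1.28 ± 0.21 (FDR = 0.00190). IFNγ lowered *CXCL8* in siNC cells, whereas the siPDL1-1 libraries of both states overlapped. This call held in 11 of 18 alternatives. It was lost with pseudocount 0.1 (1.57, FDR = 0.0108), without the filter on low values (FDR = 0.0110), without siNC replicate 1 (1.29) or 2 (1.27), without IFNγ-treated siNC replicate 2 (1.21), and without siPDL1-1 replicate 1 (1.24) or 2 (1.32), with FDR from 0.0102 to 0.0163. The *CXCL3* response differed by 0.98 ± 0.19 (FDR = 0.00910), a call that held in only 2 of 18 alternatives and was lost with edgeR (FDR = 0.0162), with DESeq2 (FDR = 0.0522) and with only the groups compared (FDR = 0.0242). It passed without IFNγ-treated replicate 1 of siNC and without that of siPDL1-1, and leaving out any of the other 10 libraries gave 0.82 to 1.02 with FDR from 0.0110 to 0.0681. The *CXCL8* response with siPDL1-2 differed from that with siNC by 0.78 ± 0.21 and missed the threshold (FDR = 0.0108). It passed in only 4 of 18 alternatives, over which the value ran from 0.62 to 0.94. These were its own groups, leaving out IFNγ-treated siPDL1-1 replicate 1 or 2 (0.78), and leaving out unstimulated siPDL1-2 replicate 1 (0.94). In total, 3 of the 10 genes had a higher response with siPDL1-1 and 1 with siPDL1-2, and 0 had a lower one. Each of these genes was lowered by IFNγ in siNC cells, so a higher response means a smaller or absent decrease. Over all genes tested the calls were 0.890% higher and 0.0779% lower for siPDL1-1 and 1.84% higher and 5.78% lower for siPDL1-2, and both share the siNC libraries.

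After IFNγ, *LIF* was higher with siPDL1-1 than with siNC, and *CXCL8* and *CXCL2* were lower with siPDL1-2. With siPDL1-1, *LIF* measured 21.5 and 18.0 CPM against 11.2 and 11.6 with siNC. Its mean was 1.73 times as high, and the log2 fold change was 0.74 ± 0.09 (FDR = 1.31e-05). This was the only call among the 10 genes, 1 higher and 0 lower, where 3.73% of all genes tested were called higher and 1.75% lower. *CXCL2* measured 1.22 and 1.51 CPM against 2.38 and 2.68, without overlap, but its value of -0.58 ± 0.13 (FDR = 0.00277) fell short of the fold change threshold. It passed with edgeR (-0.91), with pseudocount 0.1 (-0.85), and without IFNγ-treated siNC replicate 1 (-0.64) or siPDL1-1 replicate 2 (-0.67). *CXCL8* (-0.39 ± 0.15, FDR = 0.0483) did not pass, except without IFNγ-treated siPDL1-1 replicate 2 (-0.60).

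With siPDL1-2 and IFNγ, *CXCL8* measured 0.938 and 0.793 CPM against 3.20 and 2.80 with siNC, a mean 71.2% lower. It fell by 1.10 ± 0.15 (FDR = 6.63e-05), and the 18 alternatives ran from -1.81 (edgeR) to -1.03. Its CPM values here were the lowest *CXCL8* values of the 12 libraries, resting on 16 and 24 reads. *CXCL2* measured 0.880 and 1.26 CPM and fell by 0.78 ± 0.13 (FDR = 4.35e-04), with alternatives from -1.20 (DESeq2) to -0.64. *CXCL3* measured 0.997 and 1.29 CPM against 2.55 and 1.87, and its value of -0.58 ± 0.14 (FDR = 0.00490) fell short of the fold change threshold. It passed with edgeR (-0.91), with pseudocount 0.1 (-0.89) and without IFNγ-treated siNC replicate 2 (-0.73). *LIF* measured 13.3 and 12.7 CPM, slightly above siNC with IFNγ, and did not pass (0.17, FDR = 0.156). *IL6* did not pass either (-0.26, FDR = 0.205). Here 2 of the 10 genes were lower and 0 higher, against 1.20% and 1.92% of all genes tested.

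Between the siRNAs after IFNγ, *CXCL8* was 2.39 times as high with siPDL1-1 (1.65 and 2.49 CPM) as with siPDL1-2 (0.938 and 0.793). The log2 difference was 0.71 ± 0.15 (FDR = 0.00329), with alternatives from 0.50 to 1.26 (DESeq2). The call was lost without IFNγ-treated siPDL1-1 replicate 2 (0.50) or siPDL1-2 replicate 1 (0.76) or 2 (0.65). It was also lost without the filter on low values (FDR = 0.0124) and with only the IFNγ-treated groups, siNC included (FDR = 0.0148). *LIF* was higher with siPDL1-1 by 0.56 ± 0.09 (FDR = 3.92e-04), under the fold change threshold. It passed with edgeR (0.62), DESeq2 (0.62) and pseudocount 0.1 (0.59), and without siPDL1-1 replicate 2 (0.68) or siPDL1-2 replicate 1 (0.59). Of the 10 genes, 1 was higher and 0 lower, and 1.79% and 0.439% of all genes tested were. Of 12 type I interferon response genes, 11 were called higher after IFNγ with siPDL1-1 than with siNC, and 11 than with siPDL1-2. Their summed level after IFNγ was 4261 to 4309 CPM with siPDL1-1, 432 to 457 with siNC and 468 to 484 with siPDL1-2. In unstimulated cells 8 of the 12 were called higher with siPDL1-1 than with siNC, and 8 than with siPDL1-2. Over all genes tested the shares were 2.55% and 0.884%. With siPDL1-2 against siNC, 0 of the 12 were called. The unstimulated sums were 103 to 104 CPM with siPDL1-1, 58.7 to 59.7 with siNC and 51.5 to 53.0 with siPDL1-2. The part of that response in the *LIF* and *CXCL8* values with siPDL1-1 was not tested.

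Ordered by mean, *CXCL8* was highest in unstimulated siNC cells (7.52 ± 0.10 CPM, SD, n = 2), followed by siNC with IFNγ (3.00 ± 0.28), siPDL1-1 with IFNγ (2.07 ± 0.60), siPDL1-1 (1.67 ± 0.10), siPDL1-2 (1.32 ± 0.36) and siPDL1-2 with IFNγ (0.866 ± 0.102). Of the 5 steps between neighbours in this order, only the first passed the thresholds, and the 2 siPDL1-1 states overlapped. *IL6* followed another order, with siNC and IFNγ highest (3.97 ± 0.02), then siPDL1-2 with IFNγ (3.21 ± 0.89), siPDL1-1 with IFNγ (2.93 ± 0.02), siNC (2.02 ± 0.32), siPDL1-1 (1.55 ± 0.31) and siPDL1-2 (1.21 ± 0.02). No step between neighbours that was tested passed the thresholds, and the siPDL1-1 and siPDL1-2 libraries with IFNγ overlapped. Every IFNγ-treated library had more *IL6* than every unstimulated one.

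Across the 12 libraries, which share conditions and are not independent, the log2 levels of *CXCL8* and *CXCL3* had a Pearson r of 0.95, *CXCL8* and *CXCL2* of 0.90, and *CXCL2* and *CXCL3* of 0.88. *CXCL8* and *IL6* had an r of 0.05 and *IL6* and *LIF* of -0.53. Among 11587 genes averaging 5 CPM or more, the 5 most like *CXCL8* over the 12 libraries were *CCN1* (0.964), *SMG6* (0.964), *PLK2* (0.959), *STPG1* (0.956) and *PTHLH* (0.938). Genes among the most like *IL6* were *RAB5C* (0.974), *SOD1* (0.972), *RSL1D1* (0.972) and *ZFP36* (0.960), the last of which encodes tristetraprolin, an RNA-binding protein that promotes decay of cytokine mRNAs.

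The interleukin 1 genes were near the detection limit. *IL1A* gave 5 to 19 reads and *IL1B* 2 to 17 reads per library. *IL1B* measured 0.343 and 0.380 CPM in unstimulated siNC cells and 0.116 and 0.0471 with siPDL1-1, the lowest condition. *IL1A* measured 0.343 and 0.430 CPM in unstimulated siNC cells and 0.150 and 0.228 after IFNγ. Neither gene was called in any of the 11 comparisons, and the lowest FDR was 0.138 for *IL1A* and 0.0439 for *IL1B*.

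Genes that receive or process these signals were examined as lists. Of 9 receptor and signalling genes of the IL6 family, 8 were tested. IFNγ raised *SOCS3*, the feedback inhibitor of this pathway, by 0.81 with siNC, 0.71 with siPDL1-1 and 0.78 with siPDL1-2. It also raised *LIFR*, the receptor for LIF, from 24.6 ± 0.8 to 65.3 ± 2.4 CPM (mean ± SD, n = 2) in siNC cells (1.37) and by 1.32 in siPDL1-1 cells. With siPDL1-2 the *LIFR* value was 0.29 and did not pass. The IFNγ response there differed from that in siNC cells by -1.08 for *LIFR* and by -1.004 for *IL6ST*, both called lower. Of all genes tested, 5.78% had a response called lower in that comparison and 1.84% higher. In unstimulated cells *LIFR* rose by 0.64 with siPDL1-1 and 0.98 with siPDL1-2, and *OSMR*, a receptor subunit for oncostatin M, rose by 0.67 with each. *IL6ST* rose with siPDL1-2 by 0.70. The list had 2 higher and 0 lower with IFNγ in siNC cells, and 2 higher with siPDL1-1 and 3 higher with siPDL1-2 in unstimulated cells, where 6.67%, 2.55% and 4.84% of all genes tested were called higher. Its medians were 0.29, 0.30 and 0.09, and those of all genes were 0.00, 0.02 and 0.03.

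Of 19 other genes of the IL1 family and its signalling, 11 were tested. *CASP1*, which cleaves the IL1B precursor, rose with IFNγ by 2.67, 3.28 and 2.42 in siNC, siPDL1-1 and siPDL1-2 cells. *MYD88*, the adaptor of the IL1 receptor, rose by 0.62, 1.36 and 0.62, and the response with siPDL1-1 was higher than with siNC by 0.74. *IL1RAP*, the IL1 receptor accessory protein, rose in unstimulated cells by 0.70 with siPDL1-1 and 1.12 with siPDL1-2. *IL1R1* rose by 0.59 with siPDL1-1, and *IRAK1* fell by 0.66 with siPDL1-2. *CASP1* fell by 0.62 with siPDL1-1. In unstimulated cells the list had 2 higher and 1 lower with siPDL1-1 (2.55% and 1.45% of all genes tested) and 1 higher and 1 lower with siPDL1-2 (4.84% and 1.33%). Its medians were -0.19 and 0.16, and those of all genes 0.02 and 0.03.

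All 22 NF-kB, AP-1, C/EBP and related regulators were tested. In unstimulated cells limma called 0 of them with siPDL1-1, where 9 had an unadjusted p under 0.05 and edgeR and DESeq2 called 1 each. Of all genes tested, limma called 1.45% lower and 2.55% higher there. With siPDL1-2 it called 3 lower and 0 higher, against 1.33% and 4.84% of all genes tested: *TNFAIP3* (-1.10), which encodes the NF-kB feedback inhibitor A20, *NFKBIB* (-0.86), an inhibitor of the IkB family, and *RELB* (-0.68), an NF-kB subunit. The medians of the list were -0.04 and -0.34, and those of all genes 0.02 and 0.03. After IFNγ, siPDL1-2 cells had lower *TNFAIP3* (-0.87), *NFKBIZ* (-0.77) and *NFKBIA* (-0.72) and higher *JUND* (0.90), 3 lower and 1 higher against 1.20% and 1.92% of all genes tested. With siPDL1-1 and IFNγ, limma called 0 of the 22, where 8 had an unadjusted p under 0.05, edgeR called 0 and DESeq2 called 2. Of all genes tested, limma called 1.75% lower and 3.73% higher there. IFNγ raised *NFKBIZ*, a coactivator of *IL6* transcription, by 0.85 and *ATF3* by 0.70 in siNC cells. *CEBPB* and *CEBPD*, C/EBP factors known for their action on *IL6*, rose with IFNγ in siPDL1-2 cells by 0.94 and 1.66. *CEBPD* also went from 12.6 and 16.7 CPM to 30.5 and 20.3 in siNC cells, and from 19.4 and 17.0 to 26.0 and 30.9 in siPDL1-1 cells. *CEBPB* went from 53.5 and 48.7 CPM to 73.9 and 77.7 in siPDL1-1 cells. Its siNC libraries overlapped (57.8 and 71.5 CPM before, 78.9 and 62.3 after). In siPDL1-2 cells *NFKBIZ* measured 8.65 and 8.24 CPM before IFNγ and 11.2 and 9.65 after it. With IFNγ the list had 2 higher in siNC, 3 in siPDL1-1 and 5 in siPDL1-2 cells, and 0 lower in each. Over all genes tested, 6.67%, 5.58% and 3.62% were called higher and 1.45%, 1.30% and 1.65% lower.

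Among 8 regulators of cytokine mRNA decay, *ZFP36* rose with IFNγ in all siRNA groups, by 0.86, 0.65 and 0.89, and it was the only 1 of the 8 called in these comparisons. Over all genes tested, 6.67%, 5.58% and 3.62% were called higher there and 1.45%, 1.30% and 1.65% lower. Of 7 other IL6-family and colony-stimulating cytokines, 3 were tested, and *CLCF1*, which encodes another ligand of the family, fell by 0.62 with IFNγ in siNC cells. *CSF2* and *CSF3*, the growth factors of granulocytes, had 0 to 2 reads per condition. Of the 6 genes for neighbouring chemokines and receptors, *PPBP*, *PF4*, *PF4V1* and *CXCR1* had 0 reads in every library and *CXCR2* had 1 to 5 reads per condition, so the receptor transcripts for these chemokines were at or near the floor in these cells. The 1 tested gene of that list, the decoy receptor *ACKR1*, was not called in any comparison by limma, edgeR or DESeq2, and its unadjusted p was under 0.05 in 3 comparisons.

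**Figure D4:**
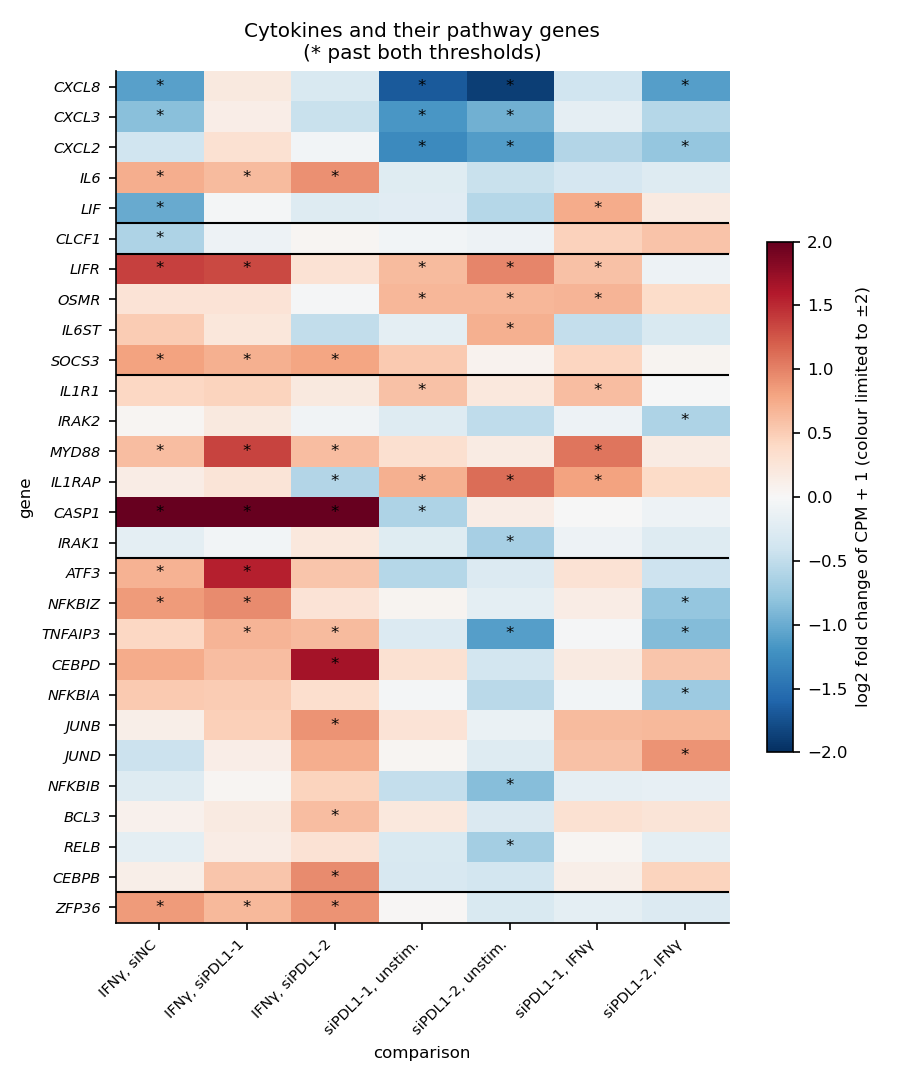
Log2 fold change of CPM + 1 (colour, limited to ±2) of 28 genes (vertical axis, grouped as cytokines, IL6 family, receptors, IL1 pathway, transcription regulators and mRNA decay) in 7 comparisons (horizontal axis). Stars mark values past both thresholds; the chemokines *CXCL8*, *CXCL3* and *CXCL2* are lower with both siRNAs without IFNγ, and *CASP1* exceeds the colour limit with IFNγ (2.42 to 3.28).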

How the data were processed

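RNA was measured in 12 U251 libraries, grouped by the sample labels. Per the methods and file header, the authors trimmed paired reads, mapped them to GRCh38 (Ensembl) and counted both strands in CLC Genomics Workbench. The deposited signal values are CPM normalized by the authors in that program. They were whole multiples of 1 read in 100% of cases (tolerance 0.05 reads), so reads were recovered; 1 read was worth 0.0187 to 0.0586 CPM, which sets the precision. Genes passing filterByExpr (minimum count 10, total 15) were fitted as 6 groups with limma 3.58.1 (trend, robust) on log2(CPM + 1), with 6 residual degrees of freedom, R 4.3.3 and Benjamini-Hochberg FDR over 17982 genes. Called genes had FDR < 0.01 and fold change > 1.5, in 11 comparisons. A log2 change on this scale understates the change of low genes.

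The members and lists were chosen with earlier results of these data known. Named genes are the 10 members, *CD274*, called genes of the lists, and the 5 genes most like *CXCL8* and *IL6*, of which 1 is not reported here. Alternatives were edgeR 4.0.16 on recovered reads, DESeq2 1.42.0, pseudocount 0.1, no filter, a replicate block, each comparison's own groups, no fold change threshold, and leaving out each library. For siRNAs compared with or without IFNγ, the own groups were all siRNA groups of that state. The fit was tested on simulated data with changes only in genes averaging above 5 CPM. That test does not cover lower genes such as *CXCL2*, *CXCL3* and *IL6*. Exon lengths and positions came from GENCODE 44 and promoters from RefSeq. Libraries of 1 condition differed beyond sampling noise.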

Additional observations from a re-analysis of the deposited data

Results flagged for a closer look

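The IFNγ response differed between siRNA groups for 3 cytokine genes, by limma's test of the difference between responses. Relative to siNC cells, the response with siPDL1-1 was higher for *CXCL8* by 1.28 on the log2 scale (FDR = 0.00190), for *CXCL3* by 0.98 (FDR = 0.00910) and for *LIF* by 0.97 (FDR = 2.13e-04). With siPDL1-2 it was higher for *LIF* by 0.75 (FDR = 5.55e-04). In siNC cells IFNγ changed *CXCL8*, *CXCL3* and *LIF* by -1.09, -0.84 and -1.01, and with siPDL1-1 by 0.19, 0.14 and -0.04. With siPDL1-2 *LIF* changed by -0.26. A higher response here is therefore a smaller or absent decrease. The differences share the siNC libraries, and those for *CXCL8* and *CXCL3* depend on settings given in the part on processing. Groups of 2 libraries are too small for a search for outlying samples.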

How the results depend on the processing

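Direction and side of the thresholds were kept in 926 of the log2 fold changes recomputed for *CXCL2*, *CXCL3*, *CXCL8*, *IL6* and *LIF* over 18 alternatives, while 34 lost a call, 22 gained one and 8 reversed, none of the reversed being called. The cause of these shifts was not tested. The reversed values all came from leaving out a library, over which the log2 fold change ran from -0.012 to 0.389 for *CXCL8* and from -0.163 to 0.079 for *LIF* (IFNγ in siPDL1-1), from -0.187 to 0.076 for *CXCL2* (IFNγ in siPDL1-2), from -0.297 to 0.136 for *IL6* (siPDL1-1 against siPDL1-2 after IFNγ), from -0.212 to 0.033 for the *IL6* response with siPDL1-1 minus siNC, and from -0.024 to 0.410 for that with siPDL1-2 minus siNC.

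Of the genes called per comparison, the 1 for IFNγ in siPDL1-1 became 0 with DESeq2 and without the filter, and 0 to 1 on leaving out a library. The 1 for siPDL1-1 against siNC after IFNγ became 2 with edgeR, pseudocount 0.1 or no fold change threshold, and 1 to 3 on leaving out a library. The 1 for siPDL1-1 against siPDL1-2 after IFNγ became 2 with edgeR, DESeq2, pseudocount 0.1 or no fold change threshold. It became 0 without the filter or with only the IFNγ-treated groups, and the *CXCL8* call was lost on leaving out some libraries. The 0 for these siRNAs unstimulated became 1 without the fold change threshold. The 3 differing responses with siPDL1-1 became 2 with edgeR, DESeq2 or only the groups compared, which lost *CXCL3*, 1 with pseudocount 0.1 or without the filter, and 1 to 3 on leaving out a library, and the 1 with siPDL1-2 became 2 with its own groups and 1 to 2 on leaving out a library.

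Over 15 pairs of conditions, same-numbered libraries had deviations correlated between -0.19 and 0.25 over 14278 genes. Whether the numbers pair the libraries by experiment cannot be told from these values, and the methods do not say. With the replicate block, 2 differing responses with siPDL1-1 were called in place of 3 (*CXCL3* 0.98, FDR = 0.0142), and the other counts were the same. A block with the numbers of siNC with IFNγ exchanged, chosen after seeing the data, changed 0 of the 11 counts. In the siPDL1-2 libraries with IFNγ the chemokines rested on 15 to 39 reads, which limits the differences that 2 libraries per group can show.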
